A study of Rattus norvegicus with 6 samples.

Results

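The genes described here encode the factors that hold RNA polymerase II (Pol II) in its promoter-proximal pause and those that release it: the 4 subunits of the negative elongation factor NELF (*Nelfa*, *Nelfb*, *Nelfcd*, *Nelfe*), the 2 subunits of the DRB sensitivity-inducing factor DSIF (*Supt5h*, *Supt4h1*), 3 genes of the positive transcription elongation factor P-TEFb (*Cdk9*, *Ccnt1*, *Ccnt2*) and the P-TEFb inhibitor *Hexim1*. They were taken by symbol, for their known roles and not for their values, although earlier results of these data were known. All 10 were listed among the 17337 distinct gene names of the RNA-seq tables.

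After initiation, Pol II transcribes a short stretch and then stops close to the transcription start site (TSS). DSIF binds the elongating polymerase, and NELF binds on the DSIF-bound polymerase and stabilises the pause. P-TEFb, a kinase made of CDK9 and a T-type cyclin, phosphorylates NELF, the SPT5 subunit of DSIF and the Pol II C-terminal domain (CTD), after which NELF leaves and DSIF travels on as a positive elongation factor. HEXIM1, bound to the 7SK small nuclear ribonucleoprotein, keeps a reserve of P-TEFb inactive. Pausing is widespread, and is well known at the promoters of developmental and signal-responsive genes.

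The cells were neural progenitors isolated from the cortex of embryonic day 14 Sprague Dawley rats (*Rattus norvegicus*) of either sex, grown in culture with the growth factors bFGF and EGF and collected after passage 2. The labels give no genetic modification and no treatment, so that the data hold 1 condition and no contrast between conditions. Polyadenylated RNA was sequenced from 2 biological replicates. Replicate A gave the technical libraries A1 and A2, and replicate B gave B1 and B2. Samples of a TSS-mapping assay (Start-seq) from the same series were not analysed here.

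The 4 tables gave FPKM, in which fragments are scaled by transcript length and library size so that levels can be set side by side between genes, and the mean read coverage of each gene. Coverage per 1 FPKM, which serves as the measure of relative depth, was 22.7 to 24.4 in A1, A2 and B1 and 6.83 in B2, so B2 was the least precise library (28.1% of B1). Of 7 markers of neural progenitors 6 were listed, all of them at 1 FPKM or more in every library. None of 3 microglial and 2 endothelial markers reached 1 FPKM in every library. The microglial sum was 0.303 and 0.531 FPKM in A and 1.06 and 1.33 FPKM in B. The endothelial sum was 0.315 and 0.318 FPKM in A and 0.492 and 1.45 FPKM in B. The 4 neuronal markers summed to 137 and 157 FPKM in A and 119 and 133 FPKM in B, the 3 of the oligodendrocyte lineage to 80.3 and 82.5 FPKM in A and 169 and 115 FPKM in B, and the choroid plexus marker *Ttr* was at 80.7 and 82.6 FPKM in A and at 26.4 and 3.03 FPKM in B. Without *Pdgfra*, which was at 9.50 and 9.09 FPKM in A and 59.5 and 59.4 FPKM in B, the oligodendrocyte lineage sum overlapped, at 70.8 and 73.5 FPKM in A and 109.9 and 55.5 FPKM in B. The replicates differed in several of these markers. B1 and B2 also differed from each other in some, such as *Ttr* and *Olig2* of the oligodendrocyte lineage (103 and 49.7 FPKM). In others, such as *Pdgfra*, they did not. The summed level of the neural progenitor markers was 20711 and 22793 FPKM in A1 and A2 and 9825 and 10554 FPKM in B1 and B2, and most of this sum was *Fabp7*, a lipid-binding protein gene of radial glia. Without *Fabp7* the sum was 3912 and 4236 FPKM in A and 3305 and 5069 FPKM in B, with overlap. Most of that remaining sum was *Vim*, at 2882 and 3171 FPKM in A and 2652 and 4458 FPKM in B. *Sox2* and *Hes5* were lower in both B libraries, whereas *Vim*, *Nes* and *Pax6* overlapped. The 5 mesenchymal and meningeal markers summed to 485 and 467 FPKM in A1 and A2 and to 1764 and 2015 FPKM in B1 and B2. In bulk RNA, fewer cells of a type and less RNA per cell cannot be told apart.

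The promoters of 4 of the genes are shown, chosen by mRNA level and by difference between replicates: *Supt5h* had the highest level and *Ccnt1* the lowest, and *Ccnt2* and *Hexim1* differed most between the replicates among the genes at 1 FPKM or more. Each line gives the 120 bases before the RefSeq gene start in the GRCr8 assembly, 5′ to 3′ on the gene's strand: chr1:92744446-92744565 (minus strand) for *Supt5h*, chr7:131596939-131597058 (minus) for *Ccnt1*, chr13:41803926-41804045 (plus) for *Ccnt2* and chr10:88562769-88562888 (plus) for *Hexim1*. Capitals mark the motif letters searched, which were the TATA motif TATAA on the gene's strand, and on both strands the CCAAT box CCAAT, the GC box GGGCGG and the ETS core GGAAGT.
Supt5h: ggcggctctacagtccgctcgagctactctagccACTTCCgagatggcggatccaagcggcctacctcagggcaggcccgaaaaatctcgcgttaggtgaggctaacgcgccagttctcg
Ccnt1: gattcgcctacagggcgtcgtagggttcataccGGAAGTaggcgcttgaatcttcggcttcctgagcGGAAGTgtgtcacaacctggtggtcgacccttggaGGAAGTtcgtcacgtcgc
Ccnt2: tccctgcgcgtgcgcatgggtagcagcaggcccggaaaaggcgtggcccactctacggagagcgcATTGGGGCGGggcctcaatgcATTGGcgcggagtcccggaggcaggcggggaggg
Hexim1: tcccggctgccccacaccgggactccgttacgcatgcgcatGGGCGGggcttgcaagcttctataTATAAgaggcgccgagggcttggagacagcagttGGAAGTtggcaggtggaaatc

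The 4 promoters held different letters. *Ccnt1* had 3 ETS cores, whose first bases lay 87, 53 and 18 bases before the gene start. *Ccnt2* had CCAAT boxes on the opposite strand at 55 and 34 bases and a GC box at 51 bases that shares a base with the first of them. *Hexim1* had the TATA motif at 55 bases, a GC box at 79 and an ETS core at 21 bases, and *Supt5h* had a single ETS core, on the opposite strand, at 86 bases. Over the 250 bases before the start, 9 of the 10 genes had a RefSeq entry (*Cdk9* did not). The TATA motif occurred in 2 of these 9 (*Nelfb*, *Hexim1*), against 18.2% of the 27457 genes with an entry. CCAAT occurred in 4 of 9 against 36.1%, the GC box in 6 of 9 against 33.5% and the ETS core in 6 of 9 against 20.7%. The motifs were chosen after the sequences were read, so these counts are a description. A match is a run of letters rather than a binding site. The paper reports that, for many rat genes, the RefSeq start in rn6 differed from the start mapped by Start-seq. The distances above are from the annotated RefSeq start in GRCr8, and the start used in these cells was not mapped here.

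**Figure D1:**
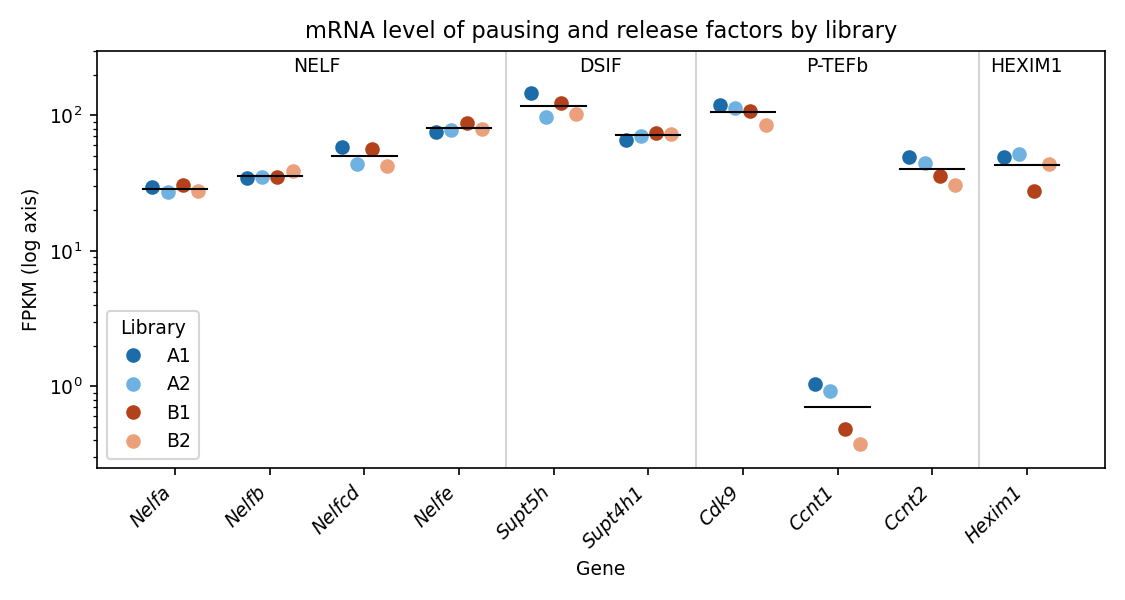
Level of the 10 genes in each library (points, FPKM on a log axis) with the mean of replicates A and B (line), grouped by complex. Of these genes, 9 lie between 27.3 and 145 FPKM in every library, and *Ccnt1* lies between 0.374 and 1.04 FPKM.

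The 4 NELF subunits were all abundant and differed in level by 2.79 ± 0.127-fold (SD, n = 2) from the lowest, *Nelfa*, to the highest, *Nelfe*. *Nelfa*, the subunit that contacts Pol II (rn6 chromosome 14, 82093837 to 82117912, plus strand), was at 29.6 and 27.3 FPKM in A1 and A2 and at 30.7 and 27.8 FPKM in B1 and B2. The replicates overlapped, and the mean was 28.9 ± 0.550 FPKM (SD, n = 2, with technical libraries averaged first, as for all means here). *Nelfb*, a core subunit first described as a cofactor of BRCA1 (chromosome 3, 2414449 to 2431148, minus strand), was at 34.7 and 35.0 FPKM in A and at 35.1 and 39.0 FPKM in B. Both B libraries were above both A libraries by a narrow margin, and the mean was 35.9 ± 1.51 FPKM.

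*Nelfcd*, the subunit that pairs with NELF-A (chromosome 3, 172510840 to 172527118, plus strand), was at 58.3 and 43.7 FPKM in A and at 56.6 and 42.2 FPKM in B, with a mean of 50.2 ± 1.11 FPKM. Its technical libraries differed by 1.33-fold in A and 1.34-fold in B, more than the 1.03-fold between the replicate means. *Nelfe*, the subunit with an RNA recognition motif (chromosome 20, 4530328 to 4536083, plus strand), was at 75.2 and 78.5 FPKM in A and at 88.5 and 79.9 FPKM in B, with a mean of 80.5 ± 5.21 FPKM and no overlap of the replicates. Its coverage per FPKM was 0.755 to 0.760 times the median of each library, whereas the other 9 genes were at the median, and a level taken from its coverage was 60.9 FPKM. On that scale NELF ranged 2.11-fold.

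Both DSIF subunits were among the higher genes of the set. *Supt5h*, which encodes the large subunit SPT5 (chromosome 1, 85437780 to 85466851, plus strand in rn6 and minus in GRCr8), was at 145 and 97.1 FPKM in A and at 124 and 102 FPKM in B, with a mean of 117 ± 5.65 FPKM. Its spread lay between the technical libraries, 1.50-fold in A and 1.21-fold in B, against 1.07-fold between replicates. *Supt4h1*, which encodes the small zinc-finger subunit SPT4 (chromosome 10, 75032365 to 75038547, plus strand), was at 66.4 and 70.9 FPKM in A and at 74.7 and 73.0 FPKM in B. B was higher without overlap, and the mean was 71.3 ± 3.66 FPKM. The ratio of *Supt5h* to *Supt4h1* was 2.19 and 1.37 in A1 and A2 and 1.66 and 1.40 in B1 and B2, a mean of 1.65 ± 0.164 (SD, n = 2). *Supt5h* was the higher in every library, and the size of the ratio varied most between A1 and A2.

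Within P-TEFb, the kinase was high and the T-type cyclins were very unequal: *Ccnt2* exceeded *Ccnt1* in every library. *Cdk9* (chromosome 3, 11742269 to 11747117, minus strand) was at 119 and 114 FPKM in A and at 107 and 84.4 FPKM in B, a mean of 106 ± 14.6 FPKM. Both A libraries were above both B libraries. *Ccnt2*, which encodes cyclin T2 (chromosome 13, 44475970 to 44515739, plus strand), was at 49.4 and 44.5 FPKM in A and at 36.0 and 30.9 FPKM in B, again with A above B and a mean of 40.2 ± 9.55 FPKM. *Ccnt1*, which encodes cyclin T1, the partner of CDK9 that HIV Tat binds in human cells (chromosome 7, 140219551 to 140245723, minus strand), was at 1.04 and 0.930 FPKM in A and at 0.486 and 0.374 FPKM in B. Its mean of 0.707 ± 0.392 FPKM lay below the 1 FPKM required of a gene for the comparison of replicates below, and its coverage was 25.2, 21.1 and 11.8 in A1, A2 and B1 and 2.55 in B2.

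The ratio of *Ccnt2* to *Ccnt1* was 47.5 and 47.9 in A1 and A2 and 74.0 and 82.6 in B1 and B2, a mean of 62.7 ± 21.3 (SD, n = 2). *Ccnt1* made up 2.05% of the summed T-type cyclin level in A and 1.27% in B. *Cdk9* exceeded the sum of both cyclins in every library, by 2.36 and 2.50 times in A and 2.93 and 2.70 times in B (2.62 ± 0.282). These are ratios of mRNA levels, and protein was not measured.

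*Hexim1* (chromosome 10, 91200874 to 91202986, plus strand) was at 49.2 and 52.1 FPKM in A and at 27.9 and 43.7 FPKM in B, a mean of 43.2 ± 10.5 FPKM. A was higher without overlap, and B1 and B2 differed from each other by 1.57-fold, more than the 1.41-fold between the replicate means. Its ratio to *Cdk9* was 0.414 and 0.458 in A and 0.261 and 0.518 in B, a mean of 0.405 ± 0.0434, and without B2 this mean was 0.348. *Hexim1* was below *Cdk9* in every library. Against the summed cyclins it was at 0.976 and 1.15 in A and 0.764 and 1.40 in B, so that no order of the inhibitor and the cyclins held in all libraries.

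**Figure D2:**
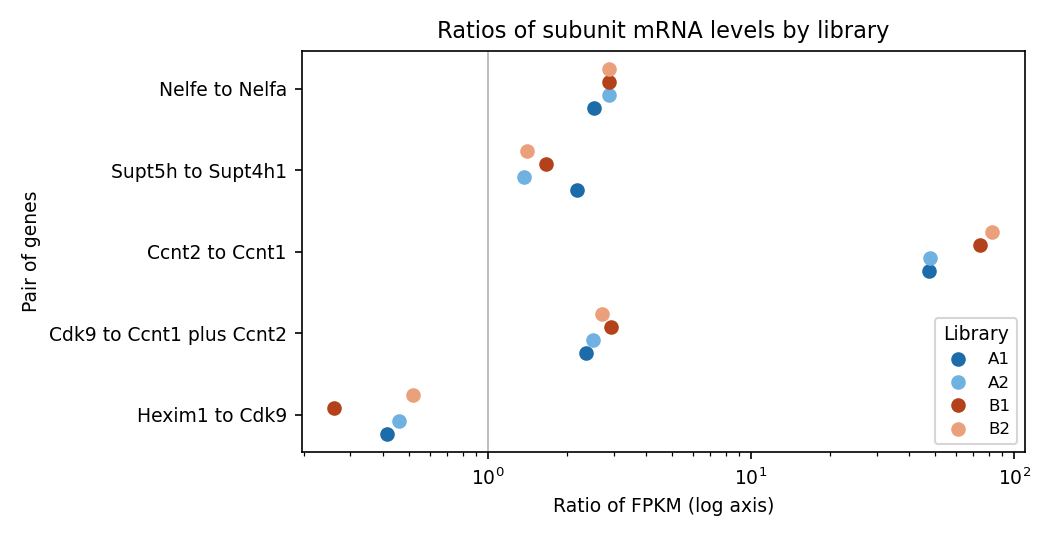
Ratios of levels between partner genes in each library (points, log axis). *Ccnt2* to *Ccnt1* is far above the other ratios, at 47.5 to 82.6, and *Hexim1* to *Cdk9* is below 1 in all 4 libraries.

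From the highest to the lowest mean the order was *Supt5h*, *Cdk9*, *Nelfe*, *Supt4h1*, *Nelfcd*, *Hexim1*, *Ccnt2*, *Nelfb*, *Nelfa* and *Ccnt1*. Of the 9 steps between neighbours, 4 were separate in all libraries. These were *Nelfe* over *Supt4h1* (1.13-fold), *Supt4h1* over *Nelfcd* (1.42-fold), *Nelfb* over *Nelfa* (1.25-fold) and *Nelfa* over *Ccnt1* (40.8-fold). On the coverage scale *Supt4h1* stood above *Nelfe*, so the first of these steps depended on the measure. *Cdk9* stood above *Nelfe* in each of the 4 libraries taken singly, by 1.06 to 1.58 times, although their ranges over all libraries overlapped. At the other 4 steps, among them *Supt5h* and *Cdk9*, the order was not the same in every library, so these neighbours did not differ beyond their spread.

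Against other genes, those of the pausing machinery were well expressed. Among the 10481 genes whose mean reached 1 FPKM, the 9 genes other than *Ccnt1* stood between percentiles 65.3 (*Nelfa*) and 91.3 (*Supt5h*), with a median of 79.2. Their median level was 50.2 FPKM, beside 16.6 FPKM for all genes compared. *Ccnt1* was at rank 10839 of 17337 names.

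Comparing replicates A and B asks how far each level held between biological repeats. A gene was counted as different when its means were 1 or more apart in log2(FPKM + 1), where changes of low genes appear smaller than they are, and the libraries of A and B did not overlap. By this rule 6.20% of the 10481 genes differed, and 0 of the 9. With a lower limit of 0.58 the share was 16.5% of all genes and again 0 of the 9. This count rested on B2, the shallowest library, because without it *Hexim1* passed the lower limit, as 1 of the 9 beside 16.7% of all genes. The median size of the difference was 0.10 for the 9 genes and 0.24 for all genes. All 9 lay between 20 and 150 FPKM, and over the 4016 genes of that window the median was 0.20. No test was possible with 2 replicates of 1 condition.

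By overlap alone, 3 of the 9 were higher in both B libraries (*Nelfb*, *Nelfe*, *Supt4h1*), beside 28.1% of all genes. Likewise 3 of the 9 were higher in both A libraries (*Cdk9*, *Ccnt2*, *Hexim1*), beside 32.0% of all genes. The mean of B was above that of A in 4 of the 9, beside 46.8% of all genes. These shares were near those of all genes. Among the 6 genes of NELF and DSIF the ratio of B to A ran from 0.934 to 1.10, and 4 were higher in B. For *Cdk9*, *Ccnt1*, *Ccnt2* and *Hexim1* it ran from 0.437 to 0.823, and A was higher without overlap in all 4. The log2 of the ratio of B to A was −0.28 for *Cdk9*, −1.19 for *Ccnt1*, −0.49 for *Ccnt2* and −0.50 for *Hexim1*. On the log2(FPKM + 1) scale used for the comparison of all genes, the difference for *Ccnt1* shrank to −0.47. Without library B2 the ratio of B to A moved toward 1 for *Cdk9*, from 0.823 to 0.920, and away from it for *Hexim1*, from 0.707 to 0.551.

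The direction of these 4 genes was the same with B2 left out, in TPM (a scale on which the genes of every library sum to the same total) and after scaling each library by its median ratio. For NELF and DSIF it was not. Without B2, when *Nelfcd* and *Supt5h* changed sides, 6 of the 6 were higher in B, beside 47.8% of all genes. In TPM, when *Nelfa* changed sides, 3 of the 6 were higher in B, beside 42.0% of all genes. *Nelfb* overlapped between the replicates in TPM and after scaling, which left 2 genes, not 3, higher in both B libraries. Over all genes, the share without overlap in either direction was 62.2% in TPM and 60.4% after scaling. The fold between replicates exceeded both folds between technical libraries for *Supt4h1* (1.08 against 1.07 and 1.02), *Ccnt2* (1.40 against 1.11 and 1.17) and *Ccnt1* (2.29 against 1.12 and 1.30). For the other 7 genes at least 1 pair of technical libraries differed as much as the replicates did or more. The margin was narrow for *Supt4h1*. The share of all genes that meet this rule was not computed, so the count has no background beside it. The lower levels of *Cdk9*, *Ccnt1*, *Ccnt2* and *Hexim1* in B went with lower *Fabp7*, *Sox2* and *Hes5*. They also went with the higher sum of mesenchymal and meningeal markers given above. The neural progenitor markers without *Fabp7* overlapped in sum, but most of that sum was *Vim*. These lower levels went too with a lower sum of neuronal markers, lower *Ttr* and higher *Pdgfra* in B. The microglial and endothelial sums, low in every library, were higher in B as well. The part of cell makeup in these differences was not tested.

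**Figure D3:**
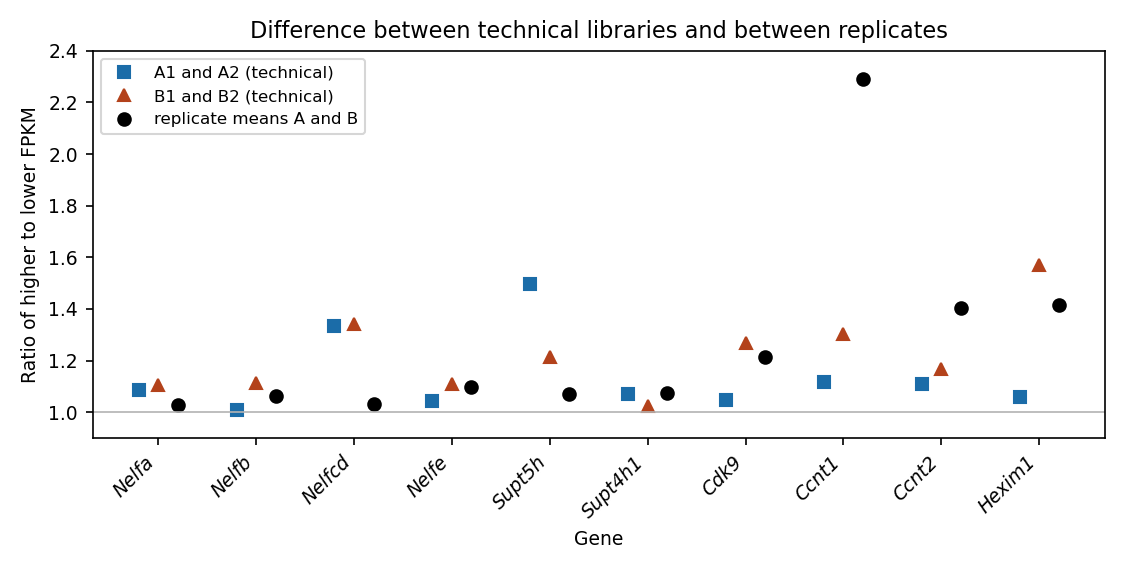
Ratio of the higher to the lower FPKM between technical libraries A1 and A2 (squares), between B1 and B2 (triangles) and between the replicate means (circles). The replicate fold reaches 2.29 for *Ccnt1*, while for *Nelfcd* the technical folds, 1.33 and 1.34, exceed the replicate fold of 1.03.

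**Figure D4:**
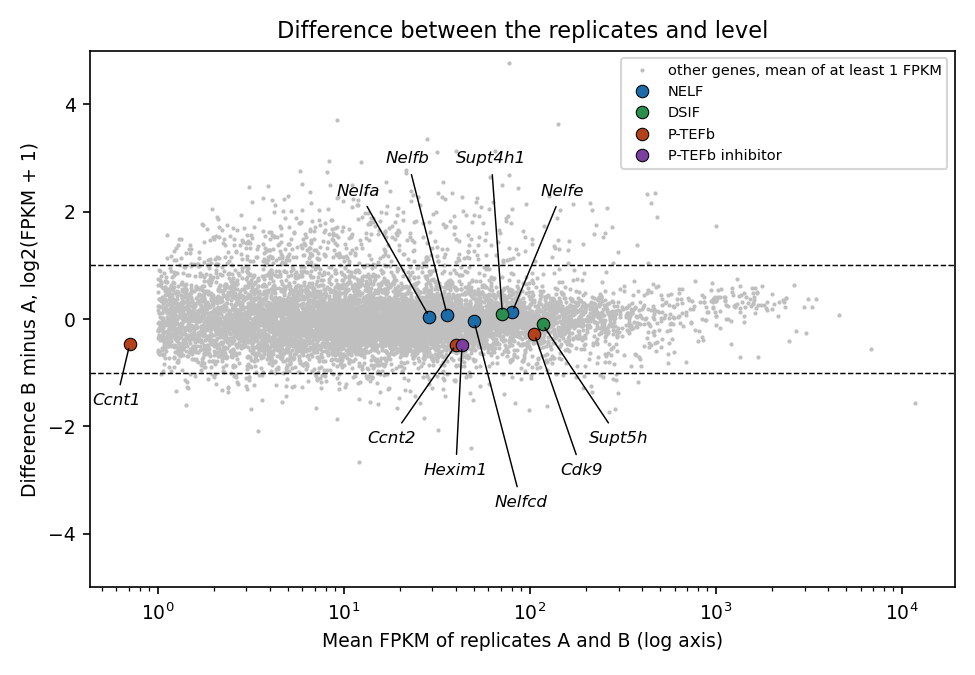
Difference between replicates (B minus A, log2(FPKM + 1)) against mean FPKM on a log axis, with grey points for the 10481 genes of at least 1 FPKM and coloured points for the 10 genes. Dashed lines mark a difference of 1, and all 10 genes lie between them.

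Genes that act with these factors gave a wider view. A list of 35 genes of 7SK, elongation and early termination factors had 32 members in the tables, whose median level was 26.6 FPKM. All but *Eaf2*, 31 genes, reached 1 FPKM. The 7SK particle, which holds P-TEFb inactive together with HEXIM proteins, was represented by *Larp7*, which binds the 3′ end of 7SK RNA, at 54.4 ± 3.18 FPKM, and by *Hexim2*, the paralog of *Hexim1*, at 16.7 ± 1.77 FPKM. *Larp7* was higher in both B libraries, at 55.7 and 57.6 FPKM, than in A, at 52.9 and 51.4 FPKM. *Hexim2* was lower in B, at 15.1 and 15.8 FPKM against 17.3 and 18.6 FPKM in A. *Mepce*, the capping enzyme of 7SK, named here after its values were seen, was at 29.7 and 28.8 FPKM in A and 23.8 and 20.0 FPKM in B. The libraries of A and B did not overlap for any of the 3 genes, as for 60.1% of all genes, and the 3 did not share a direction.

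The super elongation complex, a carrier of P-TEFb, had a lower median of 8.77 FPKM over 8 listed genes, from *Eaf2* at 0.291 ± 0.0152 FPKM to *Mllt1* at 36.9 ± 7.65 FPKM. The PAF complex, which works with DSIF on the elongating polymerase, had a median of 42.9 FPKM over 6 genes, from *Cdc73* at 8.74 ± 0.931 FPKM to *Paf1* at 102 ± 7.53 FPKM. The later CTD kinases had a median of 15.6 FPKM over 3 genes, from *Cdk12* at 4.90 ± 0.359 FPKM to its cyclin partner *Ccnk* at 30.2 ± 1.46 FPKM. Of the early termination factors 3 were listed, with *Ttf2* the lowest at 4.18 ± 0.207 FPKM and the Integrator nuclease, listed as *Cpsf3l*, the highest at 35.0 ± 1.93 FPKM.

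The remaining elongation factors had a median of 31.3 FPKM over 8 genes and were led by *Ssrp1*, a subunit of the histone chaperone FACT, at 96.3 ± 10.7 FPKM. Their lowest gene, *Tcea3*, a tissue-restricted member of the TFIIS family that helps a backtracked polymerase to cut its transcript, was at 2.44 and 2.56 FPKM in A and at 15.8 FPKM in both B libraries. *Tcea3* was the 1 gene of the 31 that differed between A and B by the rule above, by 2.26 on the log2 scale, beside 6.20% of all genes. By overlap alone, 7 of the 31 were higher in both B libraries and 7 in both A libraries, with 28.1% and 32.0% of all genes as the background.

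**Figure D5:**
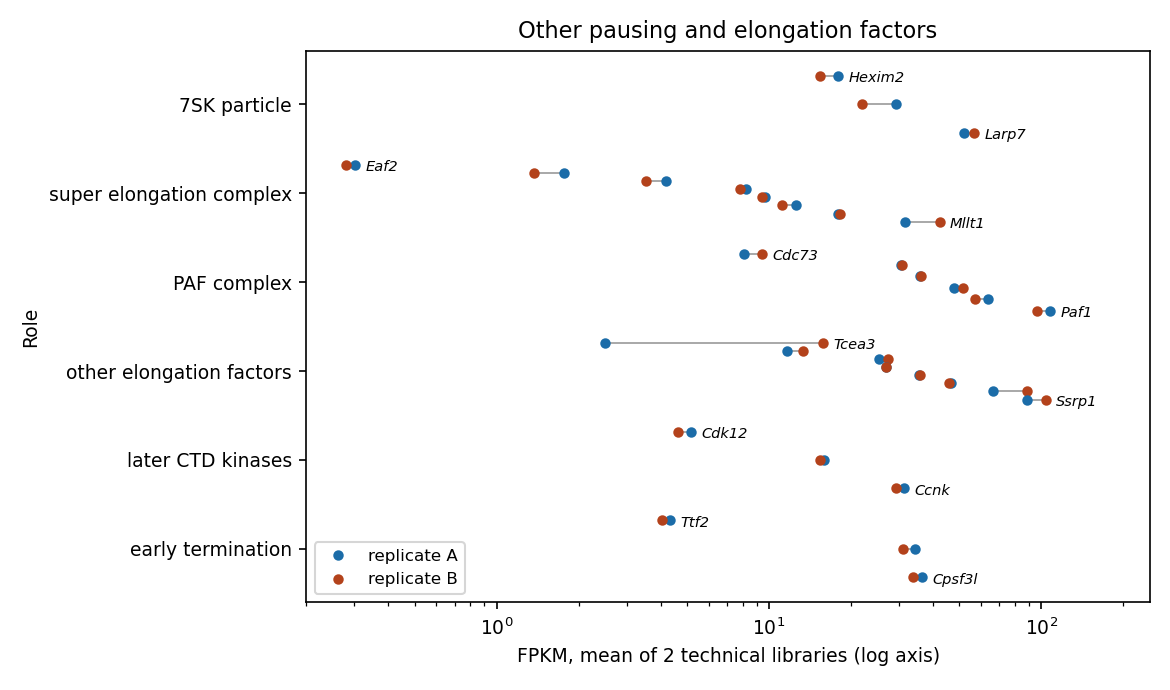
FPKM of 31 of the 32 listed genes of the wider set in replicate A (blue) and replicate B (red), each the mean of 2 technical libraries on a log axis, grouped by role with a line joining the replicates of a gene. *Paf1*, with a mean of 102 FPKM, is the highest and *Eaf2*, with 0.291 FPKM, the lowest, and *Tcea3* has the longest line.

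Where a gene shares its locus with another, reads may be shared, and the counting was not stated to use strand. In rn6, 9 of the 10 genes overlapped no other listed gene. *Nelfcd* overlapped *Ctsz*, a cathepsin gene on the opposite strand at 5.47 FPKM, so reads of the 2 genes may not be told apart there. *Nelfe* lies in a compact stretch of chromosome 20. It was 123 bases from *Cfb*, a complement gene at 0.321 FPKM, and started 210 bases from the start of *Skiv2l*, an RNA helicase gene on the other strand at 38.3 FPKM. In all, 6 of the 10 genes had their next upstream gene on the other strand.

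The genes whose levels over the 4 libraries were most like those of *Hexim1* were *Higd1a*, *Acsl3* and *Twf1*. Likeness was the root mean square of the differences in log2(FPKM + 1) over the libraries, at 0.07, 0.08 and 0.12. *Higd1a* was at 47.8 and 53.8 FPKM in A and at 30.6 and 44.7 FPKM in B, and shared with *Hexim1* the low value in B1. *Hexim1* was taken for this because its replicate difference was the widest of the 9 as deposited, though only just above that of *Ccnt2*, which was the wider after scaling by the median ratio. With 4 libraries from 2 replicates this likeness is a description of these libraries.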

How the data were processed

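Polyadenylated RNA of cultured rat neural progenitors was sequenced in 4 libraries, 2 technical libraries for each of 2 biological replicates. The reads were aligned by the authors to rn6 with STAR, and the submitters' processing notes also name cutadapt, HISAT and StringTie, with versions not given in the sources used here. Each deposited table holds, per gene, coverage (a signal), FPKM and TPM, in the layout of StringTie. The study's methods obtain FPKM with Rsubread and DESeq2 and assemble transcripts with StringTie, so which of these gave the deposited FPKM is not settled here. The deposited FPKM was the main measure, TPM and coverage were used as alternatives, and read counts were not used here, so that counting error could not be given and depth was read from coverage per FPKM.

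Rows of the same gene name were summed. Technical libraries were averaged within a replicate, and means and SDs were taken over A and B. Differences were computed on log2(FPKM + 1), over genes whose mean reached 1 FPKM. With 1 condition there was no test. The rule for a difference between replicates was tried on simulated data, where it found 200 of 200 genes changed 4-fold, with 0 false calls. Only a 4-fold change and no change were simulated, so this gives no error rate for smaller differences. The genes named are all members, and of the wider list the highest and lowest of each role and those past the rule, plus *Mepce*. The values of 1 gene of the wider list are not reported here, and its counts and medians include that gene. Members, wider list and markers were chosen with earlier results of these data known. Promoters came from RefSeq (GRCr8). Alternatives were TPM, coverage, other pseudocount and limits, scaled libraries, and leaving out B2 or a replicate. Computation used Python 3.11.15, pandas 2.3.3, numpy 2.4.6 and matplotlib 3.10.9.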

Additional observations from a re-analysis of the deposited data

Results flagged for a closer look

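Each of 16 values (levels, ratios and depth) was examined over the 4 libraries for 1 library far from the others, and 3 stood out. The level of *Nelfb* in B2, at 39.0 FPKM, lay apart from the other libraries by 0.92 of the whole range. The ratio of the highest NELF subunit, *Nelfe*, to the lowest, *Nelfa*, was 2.54 in A1, apart by 0.98 of the range. The depth of B2, at a coverage of 6.83 per 1 FPKM, was apart by 0.91 of the range. Chance alone gives about 1 such value in 20 for independent samples, and these libraries are technical pairs.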

How the results depend on the processing

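No paired analysis was possible because the values used come from 1 condition and no result comes from a test between groups, and the Start-seq samples that share the replicate letters were not analysed here. Of 121 alternative values for 21 results, 11 moved by more than the spread between replicates or, for counts, 1.5 times. Many of the others could not move, since a mean without 1 of 2 replicates stays within the SD and each member has a single row. The direction between replicates changed for *Nelfcd* and *Supt5h* without B2 and for *Nelfa* in TPM. Without B2 the ratio of *Hexim1* to *Cdk9* was 0.348, *Nelfa* was at 29.6 FPKM and *Nelfcd* at 53.8 FPKM. The limit of 0.58 and leaving out B2 were also combined, a choice made after seeing the data. Then 1 of the 9 genes (*Hexim1*) and 3 of the 31 of the wider list differed, in place of 0 and 1. In this setting 16.7% of all genes differed, against 6.20% by the main rule. From coverage, also chosen after seeing the data, NELF ranged 2.11-fold and *Nelfe* was at 60.9 FPKM. Of the 6 genes whose replicates did not overlap, 2 also had a fold between replicates above both technical folds. The share of all genes for which this held was not computed. The median percentile of 79.2 was 80.1 in TPM, 86.4 among all names, and 78.7 to 79.2 with a replicate left out. The value among all names is over all 10 genes, with *Ccnt1*, which the 79.2 leaves out. *Ccnt1* also reached a mean of 1 in TPM (1.20), so the set of genes may differ there too. Leaving out a replicate leaves the other's own value, so ratios then ran from 2.70 to 2.88 for NELF, 1.53 to 1.77 for *Supt5h* to *Supt4h1*, 47.7 to 77.8 for *Ccnt2* to *Ccnt1*, 2.43 to 2.82 for *Cdk9* to the cyclins and 0.374 to 0.436 for *Hexim1* to *Cdk9*. Where the construction of an alternative does not show it, the cause was not tested. The low depth of B2 limits *Ccnt1*, whose coverage there was 2.55.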
